A study of Homo sapiens with 27 samples.

Results

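The 35 genes described here encode the machinery that folds proteins in the endoplasmic reticulum (ER), removes those that fail to fold, and senses the load. They were taken by name from the gene lists, 35 of the 27115 genes listed in every library. RNA was sequenced on day 8 after infection with lentiviral shRNAs in 3 established diffuse large B-cell lymphoma (DLBCL) lines, Karpas422 (OXPHOS subtype), OCI-Ly1 (germinal center B-cell-like) and HBL1 (activated B-cell-like). Each line received a scrambled control shRNA (shCTRL) or 1 of 2 shRNAs against the mitochondrial deacetylase SIRT3 (shSIRT3-1 and shSIRT3-2), with 3 replicates each, 27 libraries in 9 groups. All 9 groups share the vector with its puromycin and YFP markers. Each line stands for its subtype alone, and each group is a transduced population of a single line. Per the study's methods, OCI-Ly1 was kept in Iscove's medium, and Karpas422 and HBL1 in RPMI with added glutamine and HEPES. Line and medium thus cannot be told apart in comparisons with OCI-Ly1. Nothing in the labels says that replicates came from separate infections, so p-values measure the spread between these samples, which may be technical.

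Proteins that enter the ER through the SEC61 channel are bound by chaperones, acquire disulfide bonds and sugars, and are either exported or pulled back into the cytosol for destruction (ER-associated degradation, ERAD). When unfolded proteins build up, sensors in the ER membrane (IRE1, encoded by ERN1; ATF6; and PERK) start the unfolded protein response. IRE1 splices the XBP1 mRNA into the form that encodes an active transcription factor, cleavage of ATF6 releases another, and both raise chaperone and ERAD genes. The same program builds the secretory ER of plasma cells, the stage that follows the germinal center B cells from which many DLBCLs derive.

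XBP1 and ATF6 act with NF-Y on a short promoter sequence, the ER stress response element (ERSE), which was searched for as CCAAT, 9 bases and CCACG on either strand. Promoter windows from RefSeq (250 bases before to 50 after a start, GRCh38.p14) were found for 32 of the 35 genes, with 39 windows, and DERL1, DERL3 and PDIA3 have no window in that table. The element was in 23 of 23060 windows of all genes (0.0997%) and in windows of 8 of these genes: CALR, CANX, CRELD2, ERO1B, HSP90B1, HSPA5, PDIA6 and XBP1. ERSE-II (ATTGG, 1 base, CCACG) was in 15 windows (0.065%), among them HERPUD1, HYOU1 and SDF2L1, and the XBP1 site TGACGTGG in 178 (0.772%), among them HYOU1. A match is a stretch of letters and not a measured site. The stretches below are those of the 6 genes with the smallest adjusted p (limma) over the lines with either shRNA. HSP90B1 and CANX were left out by that rule (smallest adjusted p 0.11 and 0.57). CALR and HSPA5, which were higher after knockdown, carry the same letters as XBP1 and CRELD2, which were lower with 1 or both shRNAs. So do PDIA6 and ERO1B, which were not called over the lines. Since the choice used the knockdown result, the stretches are no test of it. Each was placed on hg19 by an exact match and is written 5′ to 3′ on the strand of its gene, with the element, on whichever strand, in capitals.
CALR, chr19:13049178-13049236, plus strand: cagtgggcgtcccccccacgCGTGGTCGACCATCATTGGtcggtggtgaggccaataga
HSPA5, chr9:128003662-128003708, minus strand: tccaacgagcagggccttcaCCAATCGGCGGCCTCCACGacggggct
XBP1, chr22:29196586-29196629, minus strand: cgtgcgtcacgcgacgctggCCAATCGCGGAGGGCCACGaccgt
CRELD2, chr22:50312182-50312240, plus strand: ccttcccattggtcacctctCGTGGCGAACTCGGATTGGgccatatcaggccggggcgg
PDIA6, chr2:10952966-10953017, minus strand: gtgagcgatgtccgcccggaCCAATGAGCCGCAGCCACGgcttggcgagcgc
ERO1B, chr1:236445463-236445508, minus strand: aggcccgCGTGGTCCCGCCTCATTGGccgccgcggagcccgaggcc

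The CRELD2 and PDIA6 stretches lie inside the annotated span of their own gene but in no exon, and the others lie upstream of the gene. Counted from the RefSeq start, the element spans -52 to -34 in XBP1, -66 to -48 in HSPA5, -80 to -62 in CRELD2, -86 to -68 in PDIA6, -225 to -207 in CALR and -243 to -225 in ERO1B.

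The values are CPM, reads scaled to a common library total, with 28694398 to 53405456 reads on genes per library (median 45669254). SIRT3, the targeted gene, was at 9.14 to 16.4 CPM in the 9 control libraries, at 1.06 to 2.79 with shSIRT3-1 and at 2.84 to 6.24 with shSIRT3-2, with no overlap between controls and knockdown in any line. All 8 B cell markers averaged at least 1 CPM in every group. With shSIRT3-2 in Karpas422, 5 of the 8 were called lower (9.44% of all genes tested, median log2 fold change of the markers -0.69). In HBL1, 5 were lower and 1 higher (16% and 7.51% of all genes, median -0.82). OCI-Ly1 had 0 lower and 0 higher (4.26% and 2.15%, median 0.19). Marker sums were 1813 to 2547 CPM in controls against 1069 to 1637 with shSIRT3-2 in Karpas422, and 1963 to 2385 against 1582 to 1669 in HBL1. With shSIRT3-1 in HBL1, 2 were lower and 2 higher (18.8% and 8.83% of all genes). The part of these markers in the changes of the set was not tested. The 9 T cell markers summed to 37.9 to 43.9 CPM in Karpas422 controls, 18.9 to 32.1 with shSIRT3-1 and 31.0 to 40.5 with shSIRT3-2, and to 2.84 or less in the other lines. The 8 epithelial and fibroblast markers, of which 1 averaged at least 1 CPM in Karpas422, summed there to 401 to 423 in controls, 144 to 292 with shSIRT3-1 and 104 to 280.0 with shSIRT3-2, in HBL1 to 18 to 23, 6.25 to 9.42 and 41.1 to 66.2, and in OCI-Ly1 to 0.657 or less. Plasma cell markers, 9 genes, summed to 1051 to 1112 CPM in HBL1 controls, 361 to 645.5 with shSIRT3-1 and 389 to 586 with shSIRT3-2, against 731 to 776, 852.5 to 1030 and 650.5 to 861 in Karpas422 and 1475 to 1638, 912 to 1404 and 1041 to 1431 in OCI-Ly1. Of 8 tested in HBL1, 5 were lower and 1 higher with shSIRT3-1 (18.8% and 8.83% of all genes). With shSIRT3-2, 4 were lower and 0 higher (16% and 7.51%). Of 7 in Karpas422, 2 were lower and 0 higher (11.5% and 4.45%), then 2 and 2 (9.44% and 5.55%). Of 6 in OCI-Ly1, 0 were lower and 0 higher (2.45% and 2.04%), then 2 and 0 (4.26% and 2.15%). The T cell sum of Karpas422 was mostly 1 gene, CD3G (mean 37.9 CPM in controls, against 1.49 for CD3D). The epithelial and fibroblast sum of Karpas422 controls was nearly all DCN (413.5). That of HBL1 controls was mostly COL1A2 (14.2) and EPCAM (5.98). The plasma cell sum of Karpas422 controls was mostly POU2AF1 (646.5), and that of OCI-Ly1 controls mostly JCHAIN (808.9) and POU2AF1 (671.7). In Karpas422, mean SDC1 went from 8.77 in controls to 23.2 with shSIRT3-2, and PRDM1 from 0.265 to 18.9. TNFRSF17 went from 3.73 to 1.47 there, and JCHAIN from 93.1 to 45.3. These sums thus rest on few genes of each list. In bulk RNA, fewer cells of a type and less RNA per cell cannot be told apart. A pair of libraries stood apart for these genes, OCI-Ly1 shCTRL replicate 2, described below, and HBL1 shSIRT3-1 replicate 3. The CPM of HBL1 shSIRT3-1 replicate 3 summed to the smallest part of the total they are scaled to (40.3%). In that library the median gene of the set was 0.37 log2 units below the mean of its controls.

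Most genes of the set did not pass the fold threshold with either SIRT3 shRNA, and those that did went both ways. The ERAD genes EDEM1 and SEL1L and the sensor-branch genes ERN1 and XBP1 were lower with each shRNA, while the chaperones HSPA5 and CALR were higher with each. Calls required a fold over 1.5 and a Benjamini-Hochberg adjusted p under 0.05 from limma on log2(CPM + 0.1), with terms for line and shRNA, over the 13076 genes with at least 1 CPM in at least 3 libraries. Of the 35 genes, 34 were tested. With shSIRT3-1, 4 were lower (background, 9.09% of all genes tested) and 2 higher (background 3.92%). With shSIRT3-2, 7 were lower (background 10.2%) and 2 higher (background 3.29%). Both shRNAs called 4 genes lower (background 3.98%) and 2 higher (background 1.1%). The shSIRT3-1 counts were thus near the background, while the count lower with shSIRT3-2 and those called with both were above it. The median log2 fold change of the set was -0.03 and 0.18 against -0.05 and -0.03 for all genes. At an adjusted p under 0.05 whatever the fold, shSIRT3-1 gave 8 lower (background 22.3%) and 4 higher (background 15.6%), and shSIRT3-2 gave 10 lower (background 21.7%) and 12 higher (background 16.3%). The last of these counts stood farthest above its background. Both contrasts share their control libraries.

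**Figure D1:**
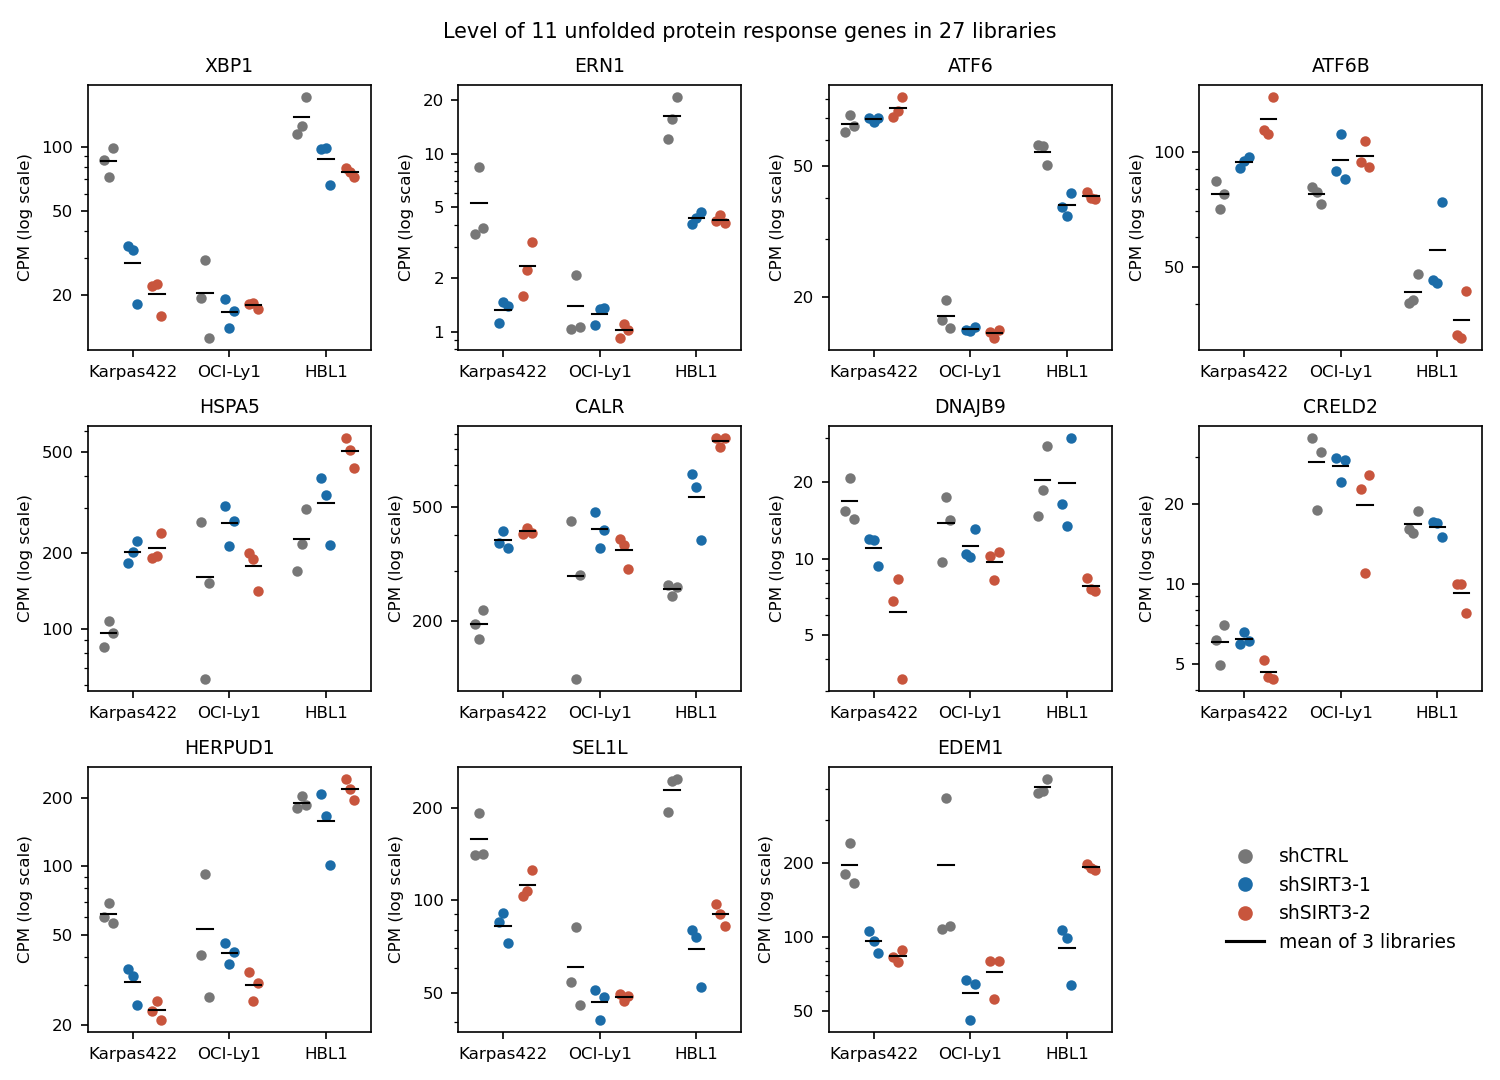
CPM on a log axis in each of the 27 libraries for 11 genes, by line (x axis) and shRNA (color), with the mean of 3 libraries as a bar. EDEM1 points with either SIRT3 shRNA lie below every control of their line, while HSPA5 and CALR points in Karpas422 lie above every control.

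XBP1, the factor that the IRE1 branch activates, was lower with both shRNAs. In Karpas422 it was at 86.3, 72.2 and 98.3 CPM with shCTRL, at 34, 32.7 and 18.3 with shSIRT3-1 and at 22.1, 22.5 and 15.9 with shSIRT3-2. In HBL1 it was at 115, 125 and 172 with shCTRL, at 97.2, 98.7 and 65.9 with shSIRT3-1 and at 79.6, 75.7 and 72.2 with shSIRT3-2. In OCI-Ly1 it was at 19.4, 29.3 and 12.6 with shCTRL, 19.2, 14.1 and 16.9 with shSIRT3-1 and 18.1, 18.5 and 17.2 with shSIRT3-2. Knockdown libraries thus lay below all controls in Karpas422 and HBL1 and inside the control range in OCI-Ly1. The difference over the 3 lines was -0.83 ± 0.21 (SE, log2 scale, adjusted p = 0.0034) with shSIRT3-1 and -1.01 ± 0.21 (adjusted p = 0.00069) with shSIRT3-2, and without Karpas422 neither was called (-0.43 and -0.47). Reads per gene count spliced and unspliced XBP1 mRNA together, so the splicing by IRE1 is not seen in these values.

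ERN1, which encodes IRE1 itself, was low in abundance and lower again with knockdown. It was at 3.55, 8.44 and 3.82 CPM in Karpas422 controls, 1.11, 1.47 and 1.40 with shSIRT3-1 and 1.59, 2.24 and 3.18 with shSIRT3-2. HBL1 controls were at 12.1, 15.7 and 20.9, against 4.06, 4.38 and 4.69 with shSIRT3-1 and 4.17, 4.52 and 4.06 with shSIRT3-2. In OCI-Ly1, where controls were at 1.03, 2.10 and 1.06, values of 1.10, 1.35 and 1.35 with shSIRT3-1 and 0.920, 1.11 and 1.03 with shSIRT3-2 overlapped them. As for XBP1, the groups separated in Karpas422 and HBL1. Over the lines ERN1 fell by 1.24 ± 0.24 (SE, log2 scale, adjusted p = 0.00024) and by 1.10 ± 0.24 (adjusted p = 0.00079), and without HBL1 the shSIRT3-2 difference was not called (-0.72, adjusted p = 0.075).

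ATF6, the sensor whose cleaved form enters the nucleus, was not called over the lines (-0.21 ± 0.07 and -0.15 ± 0.07, adjusted p = 0.031 and 0.11). In HBL1 it was at 57.9, 57.3 and 50.3 CPM with shCTRL, 37.4, 35.1 and 41.4 with shSIRT3-1 and 41.6, 39.9 and 39.8 with shSIRT3-2, so all 6 knockdown libraries were below the controls. Karpas422 controls were at 63.5, 71.3 and 66.2, with 70.0, 67.8 and 69.7 for shSIRT3-1 and 70.3, 73.4 and 81.2 for shSIRT3-2, and both overlapped the controls. In OCI-Ly1 ATF6 stayed between 14.9 and 19.5 in all 9 libraries. ATF6B, its paralog, was at 83.6, 70.8 and 77.6 CPM in Karpas422 controls, 90.6, 94.6 and 96.7 with shSIRT3-1 and 114, 111 and 139 with shSIRT3-2. In OCI-Ly1 the values were 80.8, 78.4 and 72.9 with shCTRL, 89.0, 111 and 84.7 with shSIRT3-1 and 93.8, 107 and 91.3 with shSIRT3-2. In HBL1 they were 40.2, 40.9 and 48.1, 46.3, 45.5 and 74.1, and 33.3, 32.6 and 43.3 in the same order. ATF6B was above every control in Karpas422 and OCI-Ly1 and overlapped them in HBL1, and over the lines it was not called (0.30 ± 0.12 and 0.24 ± 0.12, adjusted p = 0.051 and 0.11). WFS1, an ER membrane protein that dampens the response, was too low to test, at 0.643 to 1.31 CPM in Karpas422, at 0 in all OCI-Ly1 libraries and at 0.0314 or less in HBL1.

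Among 11 chaperones and co-chaperones, 2 were called higher with shSIRT3-1, and with shSIRT3-2 2 were higher and 2 lower, against 3.92%, 3.29% and 10.2% of all genes tested. HSPA5, the Hsp70 chaperone BiP that holds the sensors inactive, was at 84.8, 108 and 95.9 CPM in Karpas422 controls, 182, 201 and 222 with shSIRT3-1 and 191, 194 and 238 with shSIRT3-2. The HBL1 libraries were at 169, 215 and 296 with shCTRL, 393, 336 and 213 with shSIRT3-1 and 568, 508 and 432 with shSIRT3-2. OCI-Ly1 controls were at 263, 63.3 and 152, with 305, 213 and 266 for shSIRT3-1 and 198, 189 and 141 for shSIRT3-2. Separation from the controls was complete in Karpas422 and, for shSIRT3-2, in HBL1, and the OCI-Ly1 groups overlapped. HSPA5 rose over the lines by 0.82 ± 0.21 (SE, log2 scale, adjusted p = 0.0029) and by 0.88 ± 0.21 (adjusted p = 0.0016), and without Karpas422 neither was called (0.69 and 0.77).

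CALR (calreticulin), the soluble lectin that holds glycoproteins for another round of folding, was higher with both shRNAs. Its values were 196, 174 and 219 CPM in Karpas422 controls, 375, 415 and 360.3 with shSIRT3-1 and 404, 425 and 408 with shSIRT3-2. In HBL1 they were 268, 244 and 264 with shCTRL, 654, 590.4 and 384 with shSIRT3-1 and 875, 812 and 872 with shSIRT3-2. In OCI-Ly1 they were 447, 126 and 289, then 482, 361 and 415, then 386, 370.2 and 305. All 12 knockdown libraries of Karpas422 and HBL1 exceeded the controls, and OCI-Ly1 overlapped. CALR rose by 0.91 ± 0.18 (SE, log2 scale, adjusted p = 0.00031) and by 1.09 ± 0.18 (adjusted p = 4.9e-05), and both calls held in 39 of 39 alternative analyses. CANX, its membrane-bound relative, was at -0.09 and -0.06 with adjusted p of 0.57 and 0.72, and the Hsp90 chaperone HSP90B1 was at 0.32 and 0.13 (adjusted p = 0.11 and 0.55).

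DNAJB9 (ERdj4), a J protein that brings HSPA5 to IRE1 and to ERAD clients, was called lower with shSIRT3-2, and the shRNAs differed from each other (-0.80 ± 0.19, adjusted p = 0.0029). Karpas422 libraries were at 15.4, 20.8 and 14.4 CPM with shCTRL, 12, 11.8 and 9.34 with shSIRT3-1 and 6.78, 8.30 and 3.33 with shSIRT3-2. HBL1 libraries were at 14.8, 18.7 and 27.8, then 16.4, 13.4 and 30.1, then 8.41, 7.56 and 7.45. OCI-Ly1 libraries were at 9.69, 17.5 and 14.2, then 10.4, 10.1 and 13.1, then 10.2, 8.22 and 10.6. With shSIRT3-2 all libraries of Karpas422 and HBL1 were below all others of their line. The log2 fold change against shCTRL was -0.31 ± 0.19 (adjusted p = 0.21) with shSIRT3-1 and -1.11 ± 0.19 (adjusted p = 9.7e-05) with shSIRT3-2.

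CRELD2, a secreted disulfide isomerase-like ER stress protein, had the same pattern. Its HBL1 values were 16.1, 15.6 and 18.8 CPM with shCTRL, 17.1, 17.0 and 15.1 with shSIRT3-1 and 10.02, 10.1 and 7.81 with shSIRT3-2. In Karpas422 they were 6.18, 4.97 and 7.03, then 5.96, 6.60 and 6.11, then 5.18, 4.5 and 4.40. In OCI-Ly1 they were 35.5, 19.1 and 31.3, then 29.7, 24.1 and 29.3, then 22.7, 11 and 25.6. Only in HBL1 were the shSIRT3-2 libraries clear of the controls. CRELD2 was at 0.00 ± 0.13 with shSIRT3-1 and at -0.59 ± 0.13 (adjusted p = 0.0012) with shSIRT3-2, and the shRNAs differed by -0.60 ± 0.13 (adjusted p = 0.0015). These folds lay close to the threshold. The shSIRT3-2 call was lost in 11 of 39 alternatives, among them leaving out Karpas422 shCTRL replicate 3 (-0.57), OCI-Ly1 shCTRL replicate 1 (-0.54) or replicate 3 (-0.57), OCI-Ly1 shSIRT3-2 replicate 2 (-0.49), HBL1 shCTRL replicate 3 (-0.56) and HBL1 shSIRT3-2 replicate 3 (-0.54), and the difference between shRNAs was lost in 8 of 39 (-0.48 to -0.58).

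SDF2L1, a partner of the HSPA5 and DNAJB11 complex, was called between the shRNAs (0.79 ± 0.20 higher with shSIRT3-2, adjusted p = 0.0035). In HBL1 it was at 5.09, 5.09 and 6.37 CPM with shCTRL, 6.48, 6.76 and 3.5 with shSIRT3-1 and 14.5, 13.2 and 13.9 with shSIRT3-2. The shSIRT3-2 libraries of HBL1 stood clear of the other 6, while in OCI-Ly1 all 9 lay between 5.41 and 14.2. In Karpas422 shSIRT3-1 (4.46 to 7.98) and shSIRT3-2 (7.84 to 12.2) overlapped by a narrow margin. Against shCTRL it was at -0.21 and 0.58 (adjusted p = 0.42 and 0.022), neither of them called. Over the lines, 3 genes were lower with shSIRT3-2 than with shSIRT3-1 (background 6.05%) and 1 higher (background 5.27%). Without HBL1, DNAJB9 was at -0.57, CRELD2 at -0.48, SYVN1 at -0.38 and SDF2L1 at 0.50, and they were not called. The remaining chaperones HYOU1, DNAJB11, DNAJC3 and MANF had log2 fold changes from -0.26 to 0.41, of which DNAJB11 with shSIRT3-1 (0.38, adjusted p = 0.014) and DNAJC3, the co-chaperone p58IPK, with shSIRT3-2 (0.38, adjusted p = 0.0045) passed the adjusted p but not the fold.

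Of the 5 disulfide enzymes, limma called 0 with either shRNA, as did edgeR on the recovered reads. At an unadjusted p under 0.05 both tools gave 1 gene higher with shSIRT3-1, and 3 higher and 1 lower with shSIRT3-2. The share of all genes at an unadjusted p was not computed, so such counts, here and below, have no background. The protein disulfide isomerases PDIA3, PDIA6 and P4HB had adjusted p under 0.05 with shSIRT3-2 at 0.32, 0.42 and 0.35 on the log2 scale. PDIA4 was at 0.14 and 0.27 (adjusted p = 0.43 and 0.13). ERO1B, an oxidase that recharges these isomerases, was at 0.04 and -0.41 (adjusted p = 0.86 and 0.051). The neighboring gene ATP6V1C2 overlaps 45.3% of the PDIA6 exons, and whether counting used the strand is not given in the sources used here, so PDIA6 values are uncertain.

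The largest decrease of the set over the lines, with each shRNA, was that of an ERAD gene, EDEM1. EDEM1, a mannosidase-like lectin that hands misfolded glycoproteins to the degradation machinery, was at 180.2, 241 and 165 CPM in Karpas422 controls, 105, 96.1 and 85.9 with shSIRT3-1 and 82.3, 79.2 and 88.1 with shSIRT3-2. HBL1 libraries held 386, 393 and 441 with shCTRL, 106, 99.2 and 63.4 with shSIRT3-1 and 199, 191 and 187 with shSIRT3-2. OCI-Ly1 libraries held 108, 369 and 110.1 with shCTRL, 66.7, 45.6 and 64.2 with shSIRT3-1 and 79.5, 55.8 and 79.5 with shSIRT3-2. Every one of the 18 knockdown libraries was below every control of its line. Over the lines EDEM1 fell by 1.58 ± 0.20 (SE, log2 scale, adjusted p = 2.0e-06) and by 1.17 ± 0.20 (adjusted p = 8.4e-05), and both calls held in 39 of 39 alternatives. Without OCI-Ly1 shCTRL replicate 2 the decreases were 1.42 and 1.01.

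The paralogs EDEM2 and EDEM3, which trim mannose from ERAD clients, were described after their values were seen. EDEM2 was at 16.6, 16.7 and 18 CPM in Karpas422 controls and 12.7 to 15.6 in the 6 knockdown libraries, at 10.1, 11.9 and 11.2 against 7.16 to 9.58 in OCI-Ly1, and at 12.5, 13.0 and 18.3 against 8.61 to 11.3 in HBL1. EDEM3 was at 54.0, 69.0 and 52.7 against 36.7 to 43.1 in Karpas422, at 47.3, 51.9 and 46.2 against 40.9 to 46.0 in OCI-Ly1, and at 31.3, 34.6 and 33.0 against 25.4 to 29.7 in HBL1. All 18 knockdown libraries were below all controls of their line for these 3 of the 34 genes (EDEM1, EDEM2 and EDEM3, background 1.2%), and above them for 0 of 34 (background 1.02%). The margin was narrow for EDEM3 in OCI-Ly1. Neither paralog passed the fold, with EDEM2 at -0.36 ± 0.08 (adjusted p = 0.0011) and -0.43 ± 0.08 (adjusted p = 0.00020) and EDEM3 at -0.30 ± 0.06 with each shRNA (adjusted p = 0.00058 and 0.00062).

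SEL1L, the adaptor that stabilizes the ubiquitin ligase SYVN1 (HRD1), was lower with both shRNAs. It was at 140.5, 193 and 142 CPM in Karpas422 controls, 84.8, 90.7 and 72.7 with shSIRT3-1 and 103, 108 and 126 with shSIRT3-2. Values in HBL1 were 195, 245 and 250.1, then 79.9, 75.7 and 52.2, then 97.4, 90.5 and 82.7. Values in OCI-Ly1 were 54.2, 82.1 and 45.6, then 51.0, 40.6 and 48.4, then 49.6, 47.0 and 48.6. Groups separated in Karpas422 and HBL1 and overlapped in OCI-Ly1. SEL1L fell by 1.00 ± 0.16 (SE, log2 scale, adjusted p = 2.2e-05) and by 0.70 ± 0.16 (adjusted p = 0.0010), and without HBL1 the shSIRT3-2 value was below the fold (-0.38).

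SYVN1 itself differed between the shRNAs. In HBL1 it was at 129.8, 144 and 192 CPM with shCTRL, 174, 176 and 202 with shSIRT3-1 and 86.6, 89.6 and 77.9 with shSIRT3-2, and in Karpas422 at 170.1, 198 and 154, then 218, 219.9 and 216, then 148, 143 and 119.9. In OCI-Ly1 the 9 libraries were between 107 and 127. In HBL1 and Karpas422 the libraries of the SIRT3 shRNAs did not overlap each other. Against shCTRL neither was called (0.18 and -0.44, adjusted p = 0.19 and 0.0025), and between the shRNAs the difference was -0.63 ± 0.11 (adjusted p = 0.00011), which fell below the fold without HBL1 shSIRT3-1 replicate 3 (-0.58) or HBL1 shSIRT3-2 replicate 3 (-0.57).

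HERPUD1, a membrane scaffold of the SYVN1 complex, separated from its controls in Karpas422. It was at 59.7, 68.7 and 56.1 CPM there with shCTRL, 35.3, 32.9 and 24.4 with shSIRT3-1 and 23.0, 25.5 and 20.9 with shSIRT3-2. In HBL1 it was at 181, 205 and 187, then 209, 167 and 102, then 244, 219 and 196. In OCI-Ly1 it was at 40.6, 92.4 and 26.6, then 45.7, 36.9 and 41.9, then 34.3, 25.4 and 30.5. Only in Karpas422 were the knockdown libraries clear of the controls. Over the lines it was at -0.50 ± 0.21 (adjusted p = 0.062) with shSIRT3-1 and was called at -0.61 ± 0.21 (adjusted p = 0.022) with shSIRT3-2, a call lost in 10 of 39 alternatives. Those were leaving out any 1 library of Karpas422 shCTRL or shSIRT3-2 (-0.53 to -0.58), OCI-Ly1 shCTRL replicate 2 (-0.49), OCI-Ly1 shSIRT3-2 replicate 2 (-0.57), all of Karpas422 (-0.22) or all of OCI-Ly1 (-0.60). With shSIRT3-1 HERPUD1 was called without OCI-Ly1 shCTRL replicate 3 (-0.62) and without all of OCI-Ly1 (-0.66, adjusted p = 0.033).

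Of the Derlins, which form part of the exit channel, DERL1 passed the adjusted p with shSIRT3-1 but not the fold (-0.49 ± 0.06, adjusted p = 1.8e-06) and was at -0.10 with shSIRT3-2 (adjusted p = 0.23). All 9 shSIRT3-1 libraries were below the controls of their line, with 57.0, 59.4 and 52.4 CPM against 75.6, 87.4 and 74.2 in Karpas422. DERL2 was at -0.04 and 0.35 (adjusted p = 0.79 and 0.0040), DERL3 at -0.02 and -0.47 (adjusted p = 0.95 and 0.15), and the lectin OS9 at 0.06 and 0.35 (adjusted p = 0.62 and 0.0024). SMARCB1 overlaps 88.8% of the DERL3 exons, so DERL3 values are uncertain. Smaller overlaps exist in other genes of the set, among them DNAJB11 (27.5%), OS9 (26.1%), CALR (14.2%) and EDEM1 (9.68%). XBP1, HSPA5 and SEL1L have 0%. The effect of these overlaps was not tested. In all, 2 of 10 ERAD genes were called lower with shSIRT3-1 and 3 with shSIRT3-2, against 9.09% and 10.2% of all genes tested.

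In the 4 genes of entry into the ER, limma and edgeR called 0 with either shRNA. At an unadjusted p under 0.05, limma gave 1 gene higher with shSIRT3-1 and 3 with shSIRT3-2, and edgeR gave 1 and 4. SEC61B, a small subunit of the channel, was at 0.34 and 0.32 (adjusted p = 0.012 and 0.019), SSR1 of the translocon-associated complex at 0.08 and 0.24 (adjusted p = 0.49 and 0.027) and the signal peptidase subunit SPCS3 at -0.09 and 0.29 (adjusted p = 0.44 and 0.011). SEC61A1, which forms the pore, was at -0.14 and 0.27 (adjusted p = 0.42 and 0.12).

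Fitted alone, Karpas422 gave 6 genes lower (background 11.5%) and 3 higher (background 4.45%) with shSIRT3-1, and 5 lower (background 9.44%) and 4 higher (background 5.55%) with shSIRT3-2. Called with both were 4 lower (background 4.79%) and 2 higher (background 1.85%). The largest was XBP1 (-1.63 ± 0.23 and -2.08 ± 0.23, adjusted p = 0.0011 and 0.00035), followed by ERN1 (-1.81 ± 0.34 and -1.08 ± 0.34, adjusted p = 0.0037 and 0.035), HERPUD1 (-1.0 ± 0.14 and -1.40 ± 0.14, adjusted p = 0.0011 and 0.00020), EDEM1 (-1.02 ± 0.14 and -1.21 ± 0.14, adjusted p = 0.00085 and 0.00035) and HSPA5 (1.07 ± 0.13 and 1.11 ± 0.13, adjusted p = 0.00045 and 0.00035). CALR was the sixth. ERN1 with shSIRT3-2 was not called without Karpas422 shCTRL replicate 2 (-0.69, adjusted p = 0.099), shSIRT3-2 replicate 1 (-0.84, adjusted p = 0.11) or shSIRT3-2 replicate 2 (-1.08, adjusted p = 0.076).

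HBL1 gave 4 genes lower (background 18.8%) and 2 higher (background 8.83%) with shSIRT3-1, and 8 lower (background 16%) and 7 higher (background 7.51%) with shSIRT3-2. Called with both were 4 lower (background 7.87%) and 1 higher (background 2.47%). They were ERN1 (-1.84 ± 0.19 and -1.88 ± 0.19, adjusted p = 0.00028 and 0.00027), EDEM1 (-2.22 ± 0.18 and -1.08 ± 0.18, adjusted p = 8.8e-05 and 0.0024), SEL1L (-1.74 ± 0.17 and -1.34 ± 0.17, adjusted p = 0.00023 and 0.00077), CALR (1.03 ± 0.18 and 1.72 ± 0.18, adjusted p = 0.0029 and 0.00035) and XBP1 (-0.65 ± 0.19 and -0.83 ± 0.19, adjusted p = 0.024 and 0.0099). The shRNAs differed in EDEM1 (1.14 ± 0.18 higher with shSIRT3-2, adjusted p = 0.0024) and in CALR (0.69 ± 0.18, adjusted p = 0.019). XBP1 with shSIRT3-1 was not called without HBL1 shSIRT3-1 replicate 3 (-0.46), shCTRL replicate 2 (-0.71, adjusted p = 0.052) or shCTRL replicate 3 (-0.48, adjusted p = 0.066). Without shSIRT3-1 replicate 3 the other values with shSIRT3-1 were -1.98 for EDEM1, -1.55 for SEL1L, -1.89 for ERN1 and 1.26 for CALR, and HSPA5 (0.72, adjusted p = 0.025) and ATF6 (-0.60, adjusted p = 0.00081) were called. With the replicate block ERO1B was called too with shSIRT3-1 (0.62, adjusted p = 0.018).

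The 7 genes higher with shSIRT3-2 in HBL1 were HSPA5 (1.18), CALR, PDIA3 (0.61), PDIA4 (0.62), DNAJC3 (0.72), SDF2L1 (1.32) and MANF (0.91), a secreted ER stress protein, all of them chaperones or folding enzymes. The 8 lower were the sensor-branch genes XBP1 and ERN1, the ERAD genes EDEM1, EDEM2 (-0.63), SEL1L and SYVN1 (-0.85), and DNAJB9 (-1.33) and CRELD2 (-0.85). MANF and PDIA4 were close to the threshold: MANF was not called without any 1 of the 6 libraries of shCTRL and shSIRT3-2 (0.82 to 1.02, adjusted p = 0.065 to 0.12), nor PDIA4 without any 1 of 5 of them (0.52 to 0.64). EDEM2 was not called with median-ratio (-0.57) or quantile scaling (-0.55, adjusted p = 0.052), without shCTRL replicate 3 (-0.46) or without shSIRT3-2 replicate 3 (-0.58, adjusted p = 0.051). MANF was also lost without the filter on low values (adjusted p = 0.056), and PDIA3 with quantile scaling (0.58). The plasma cell marker sums were below the controls with both shRNAs in HBL1 and also in OCI-Ly1. Of 8 B cell markers, 5 were called lower and 1 higher with shSIRT3-2 in HBL1 (background 16% and 7.51%). The part of either list in the result was not tested.

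**Figure D2:**
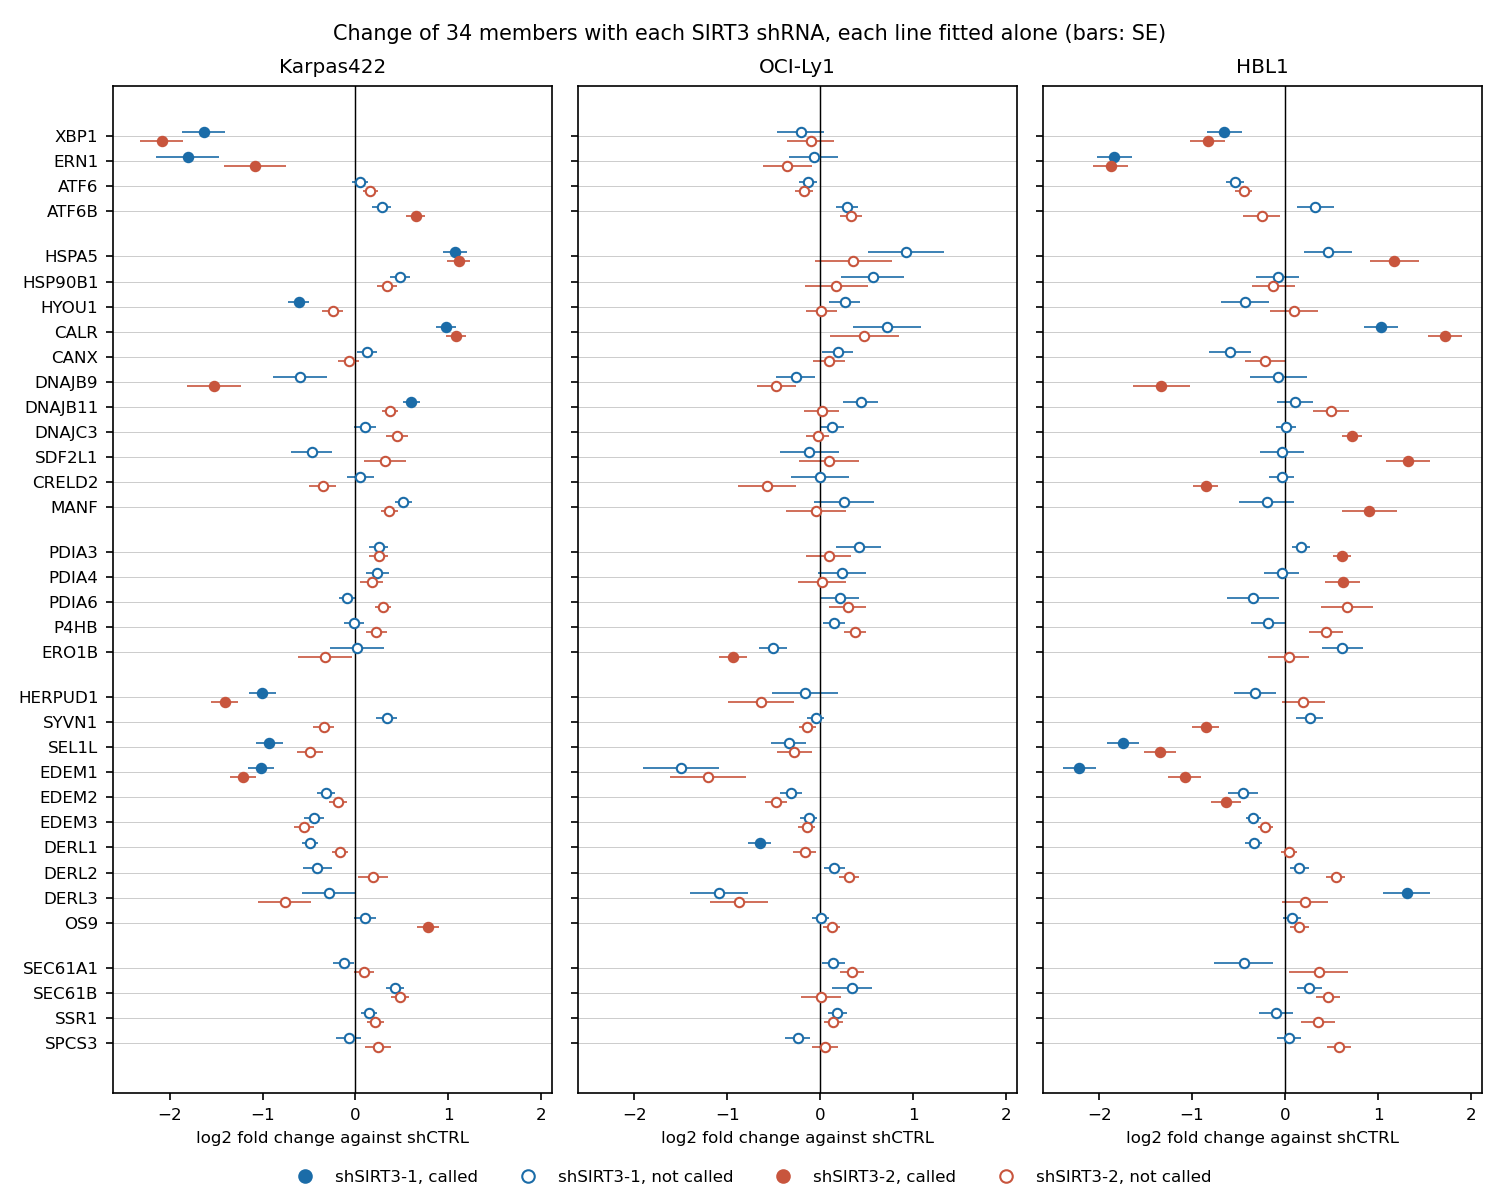
Log2 fold change against shCTRL (x axis) with its SE (bars) for 34 genes in each line fitted alone, filled where called. XBP1, ERN1 and EDEM1 lie left of 0 with filled points for both shRNAs in Karpas422 and HBL1, and OCI-Ly1 has 1 filled point for each shRNA.

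OCI-Ly1 gave 1 gene lower (background 2.45%) and 0 higher (background 2.04%) with shSIRT3-1, and 1 lower (background 4.26%) and 0 higher (background 2.15%) with shSIRT3-2. They were DERL1 (-0.65 ± 0.12, adjusted p = 0.020) and ERO1B (-0.94 ± 0.15, adjusted p = 0.013). Called with both shRNAs were 0 lower (background 0.678%) and 0 higher (background 0.571%) by limma and 0 by edgeR. At an unadjusted p under 0.05 in the same direction with both, limma gave 5 genes (ERO1B, EDEM1, ATF6B, EDEM2 and DERL3) and edgeR 4, out of 8 and 9 genes with each shRNA by limma and 5 and 10 by edgeR. Whether these counts exceed the share of all genes at that p cannot be said, since that share was not computed. EDEM1 was at -1.50 ± 0.41 (adjusted p = 0.056) and -1.21 ± 0.41 (adjusted p = 0.090). With the replicate number as a block, limma called 2 genes with each shRNA, since DERL3 was lower with both (-1.09, adjusted p = 0.024, and -0.88, adjusted p = 0.037).

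The OCI-Ly1 controls differed widely among themselves. Replicate 2 was the farthest from the other controls for 17 of 34 genes, replicate 1 for 12 and replicate 3 for 5. In replicate 2 EDEM1 was 1.76 log2 units above the mean of the other controls and HERPUD1 1.46, XBP1 0.88 and SEL1L 0.72 above it, while HSPA5 was at -1.71 and CALR at -1.55. Over all 11205 genes tested in OCI-Ly1, replicate 1 was the farthest for 37.6%, replicate 2 for 30.2% and replicate 3 for 32.1%. Replicate 2 thus stood apart for this set but was the farthest least often among all genes. In replicate 2, EDEM1, XBP1 and SEL1L were high and HSPA5 and CALR low, the reverse of their knockdown values in Karpas422 and HBL1, while HERPUD1 had no one direction in HBL1 (-0.32 and 0.20). Without replicate 2 the OCI-Ly1 differences shrank to -0.91 (adjusted p = 0.055) and -0.63 (adjusted p = 0.10) for EDEM1, to 0.37 and -0.20 for HSPA5 and to 0.21 and -0.03 for CALR, ERO1B with shSIRT3-2 remained called (-1.0, adjusted p = 0.031) and DERL1 did not (-0.57, adjusted p = 0.056). Without replicate 1 instead, 9 genes were called with shSIRT3-1 and 4 with shSIRT3-2. The share of all genes called in that fit is not given here, so these counts have no background. DERL1 was also lost without shCTRL replicate 3 (-0.70), shSIRT3-1 replicate 2 (-0.52) or shSIRT3-1 replicate 3 (-0.71), and ERO1B without shSIRT3-2 replicate 2 (-0.85, adjusted p = 0.050).

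**Figure D3:**
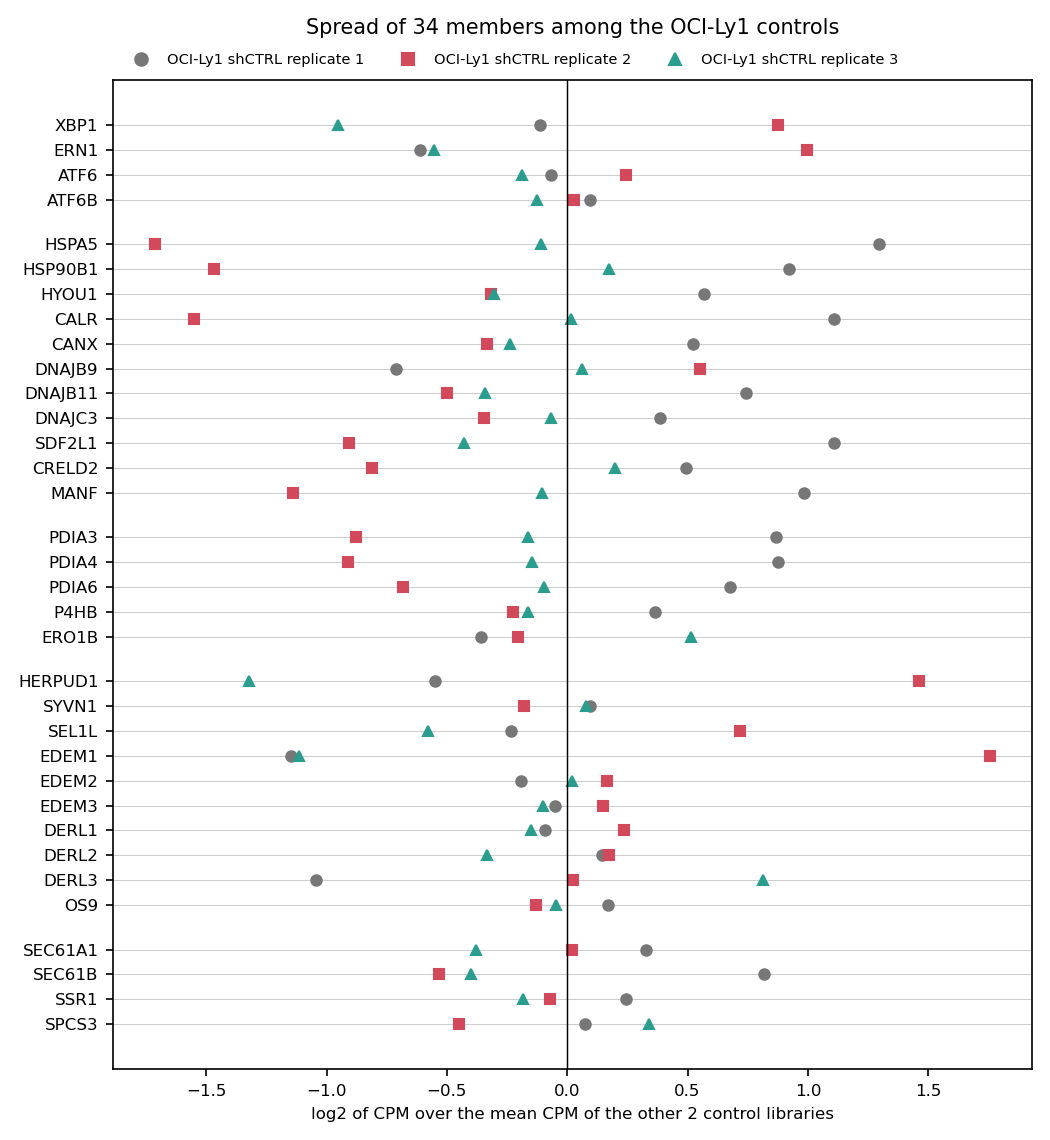
Log2 of the CPM in each OCI-Ly1 control library over the mean of the other 2 control libraries (x axis) for 34 genes. Replicate 2 (squares) is highest for EDEM1, HERPUD1, ERN1 and XBP1 and lowest for HSPA5, CALR and HSP90B1.

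An F test of the interaction of line and shRNA asked whether the lines responded alike. It was called for 13 of 34 genes (adjusted p under 0.05, background 41.8%), close to the share among all genes. The smallest adjusted p were those of SYVN1 (0.0012), ATF6 (0.0021), SEL1L (0.0023), XBP1 (0.0025) and OS9 (0.0029). ATF6 was at -0.54 and -0.45 in HBL1 against 0.05 and 0.16 in Karpas422 and -0.13 and -0.17 in OCI-Ly1. For OS9, Karpas422 stood apart with shSIRT3-2 (0.78, after 0.10 with shSIRT3-1), since OCI-Ly1 (0.01 and 0.12) and HBL1 (0.07 and 0.16) stayed lower. For EDEM1 (adjusted p = 0.081), HSPA5 (0.15) and CALR (0.088) the difference between lines did not pass, and without OCI-Ly1 shCTRL replicate 2 it did (0.00092, 0.0068 and 0.00050), with 20 genes called in all. With the replicate block 20 were also called. CALR (0.043), ERO1B, DNAJB11, CANX, DNAJB9, HYOU1, PDIA3 and SDF2L1 were gained and DERL2 (0.051) was lost. The 41.8% is from the reported fit, and the share of all genes in these alternatives is not given here. Whether the set gained more calls than all genes did cannot be said.

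Control levels of these genes also differed between the lines. Of the 34 genes, 25 differed between the controls of the 3 lines (F test adjusted p under 0.05 and a fold above 1.5 between some pair, background 76.1%), again close to the share among all genes. ERO1B was at 1.29, 1.86 and 1.40 CPM in Karpas422, 9.68, 11.7 and 12.2 in HBL1, and 17.9, 19.3 and 26.5 in OCI-Ly1 (adjusted p = 6.0e-08), so the lines did not overlap. ATF6 was 1.94 ± 0.11 (log2 scale) higher in Karpas422 and 1.65 ± 0.11 higher in HBL1 than in OCI-Ly1 (F test adjusted p = 7.8e-08). HYOU1, a large Hsp70-like chaperone, was at 238, 246 and 297 CPM in HBL1, 49.3, 58.0 and 59.4 in Karpas422 and 96.4, 64.9 and 65.3 in OCI-Ly1 (adjusted p = 9.0e-07). XBP1 was 2.80 ± 0.27 higher in HBL1 and 2.14 ± 0.27 higher in Karpas422 than in OCI-Ly1 (adjusted p = 8.4e-06). DERL1 was 1.13 ± 0.11 lower in HBL1 than in OCI-Ly1 (adjusted p = 9.1e-06).

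Per kb of mRNA, XBP1 was at 76.6 ± 16.9 CPM per kb (SD, n = 3) in HBL1, 47.8 ± 7.28 in Karpas422 and 11.4 ± 4.70 in OCI-Ly1, and ERN1 at 2.06 ± 0.56, 0.67 ± 0.35 and 0.18 ± 0.076. OCI-Ly1, where neither was called after knockdown, thus had the lowest control level of both. The most abundant of the set per kb in HBL1 were HSP90B1 (150.5 ± 17.5 CPM per kb), CANX (141 ± 12.8) and CALR (136 ± 6.65), whose levels lie within 1 SD of their neighbors in that order. In Karpas422 CALR (103 ± 11.8) and HSP90B1 (96.2 ± 13.8) led, and in OCI-Ly1 CALR (151 ± 84.6).

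**Figure D4:**
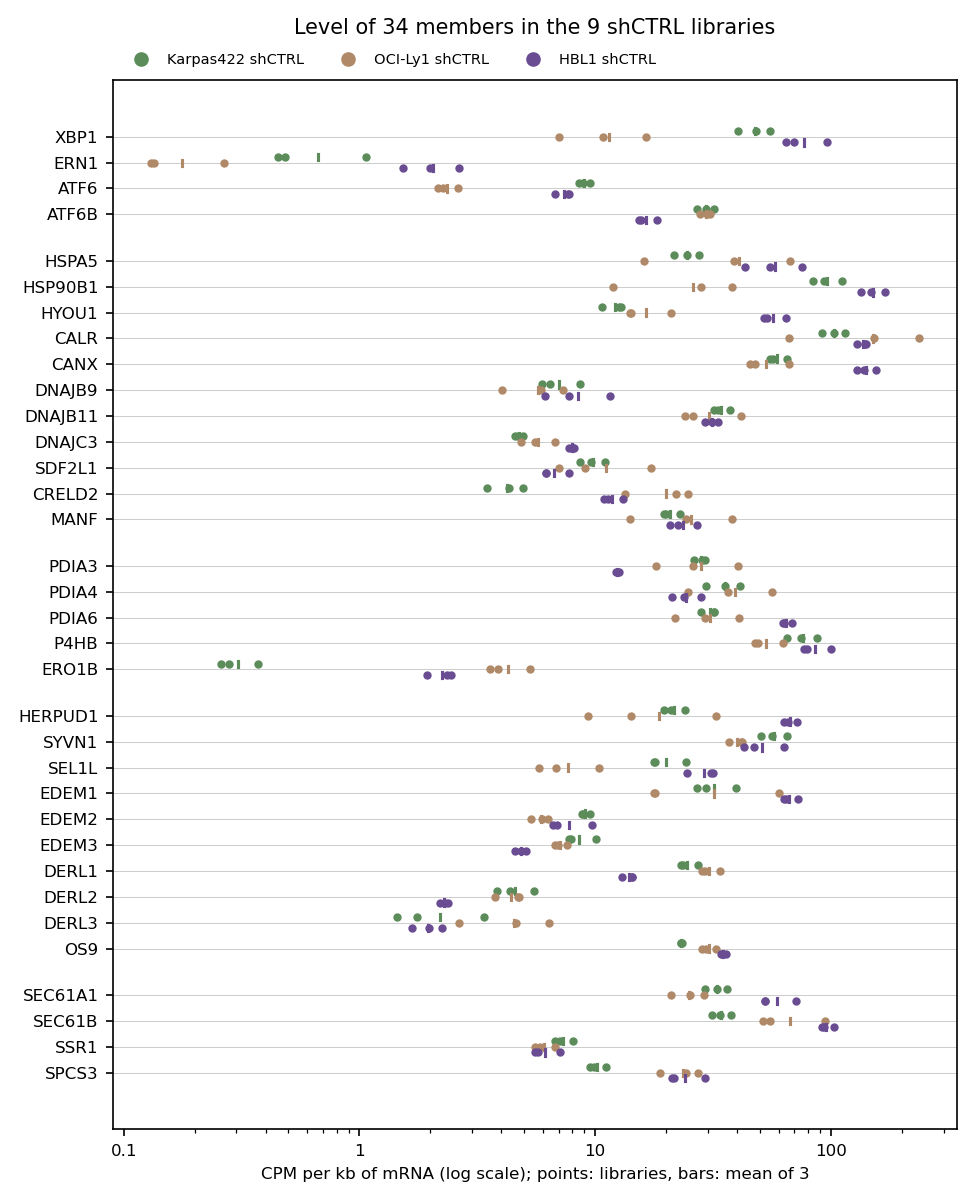
CPM per kb of mRNA on a log axis in the 9 control libraries for 34 genes, with the mean of 3 as a bar. The lines separate for ERO1B, ERN1, ATF6 and HYOU1 and overlap for CALR, DNAJB11 and MANF.

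Other genes of the pathway were taken from lists that leave out the 35. These lists were chosen with earlier results of these data known, so their counts are descriptive and no independent test. The PERK branch, which acts through ATF4, had 8 of 13 genes lower with shSIRT3-1 and 9 of 13 with shSIRT3-2, none higher, with a median log2 fold change of -1.27 and -1.86, where 9.09% and 10.2% of all genes tested were lower. By line, 9 and 10 of 13 were lower in Karpas422 (background 11.5% and 9.44%) and 10 and 10 of 13 in HBL1 (background 18.8% and 16%). In OCI-Ly1, 0 and 1 of 12 were lower (background 2.45% and 4.26%). The largest of this list over the lines were CHAC1 (-3.74 and -4.25), which degrades glutathione, CEBPB (-2.67 and -2.92) and ATF3 (-2.73 and -2.80), both transcription factors. Per the study, ATF4 is also induced when amino acids run short, through the kinase GCN2. The list is thus not specific to PERK, whose activity was not measured here. Among 17 genes that assist the sensors or resemble them, 5 were lower with shSIRT3-1 and 3 with shSIRT3-2 (9.09% and 10.2% of all genes), among them the secreted glycoprotein STC2 (-1.08 and -1.18), CREB3L4, an ATF6-like factor (-0.67 and -0.81), and MBTPS2, a protease that cleaves ATF6 (-1.13 and -0.36, the second not called). Of 42 other chaperones and folding enzymes, 4 were lower with shSIRT3-1 and 3 with shSIRT3-2, shares near or below those of all genes. They were led by the thioredoxin-like TMX4 (-1.05 and -0.62), the calcium-binding RCN1 (-0.96 and -0.71) and the MANF relative CDNF (-0.52 and -0.95). Of 34 other ERAD genes, 1 was lower with shSIRT3-1, FAM8A1 (-0.88), and with shSIRT3-2 1 was lower, ERLIN1 (-0.66), and 1 higher, the extraction ATPase VCP (0.63), all below the shares of all genes.

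The lists for entry and export are short, and their counts are of few genes. Of all genes tested, 9.09% were lower and 3.92% higher with shSIRT3-1, and 10.2% and 3.29% with shSIRT3-2. Of 23 other translocation genes, 3 were lower and 2 higher with shSIRT3-1, and 1 was lower with shSIRT3-2. The channel subunit SEC61G was at -1.07 with shSIRT3-1 and 0.31 with shSIRT3-2, a difference that was called (1.38 ± 0.14, adjusted p = 6.9e-08), and it was singled out after its values were seen. The Hsp70-like HSPA13 was lower with both (-0.66 and -0.78), the signal peptidase subunit SEC11C was called lower with shSIRT3-1 (-0.74 and -0.23) and the signal recognition particle subunit SRP14 higher with it (0.67 and 0.37). Of 10 oligosaccharyltransferase genes, which attach sugars to entering chains, 1 was higher with shSIRT3-2, RPN1 (0.60), and with shSIRT3-1 limma and edgeR called 0, with 3 lower and 4 higher at an unadjusted p under 0.05 by each tool. Of 27 genes of transport between ER and Golgi, 2 were higher with shSIRT3-1, and 1 was higher and 1 lower with shSIRT3-2, of which the cargo receptor TMED9 was higher with both (0.64 and 0.84). The coat subunit SEC23A was called higher with shSIRT3-1 (0.61 and 0.54), and the retrieval receptor KDELR1 lower with shSIRT3-2 (-0.42 and -0.65).

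**Figure D5:**
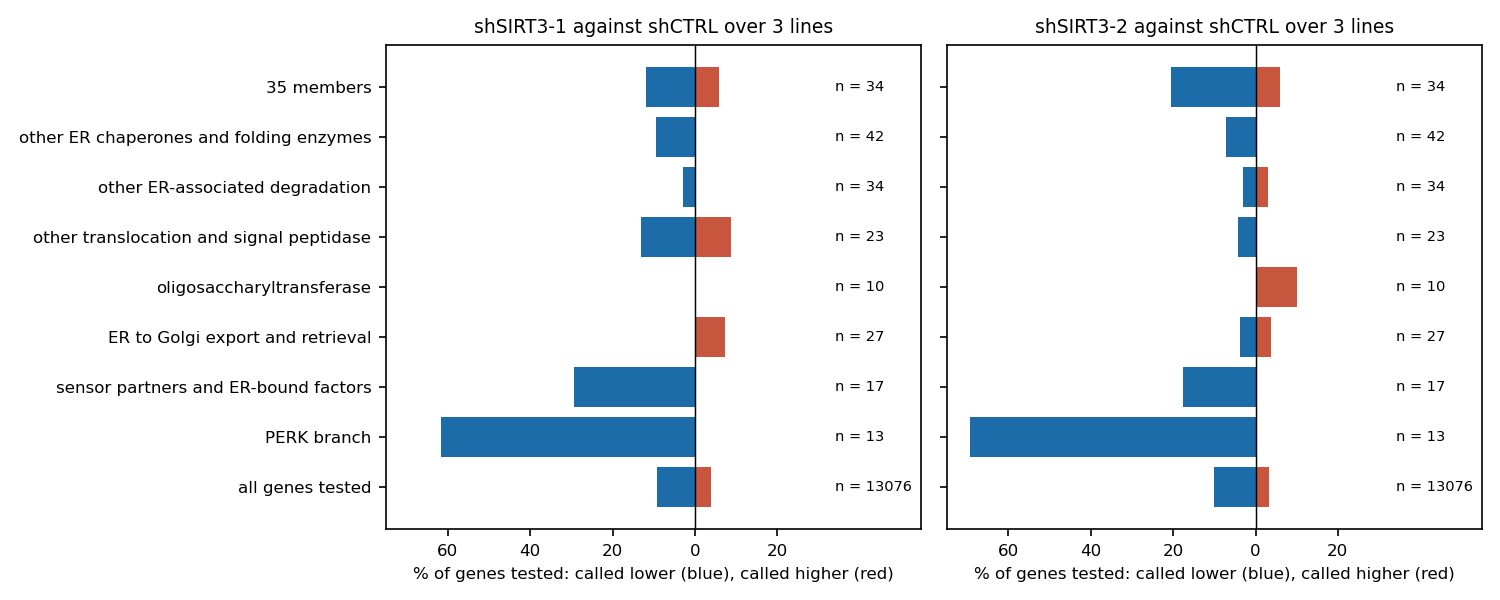
Share of genes tested that were called lower (left of 0) or higher (right of 0) with each SIRT3 shRNA over 3 lines, by list, with the number tested. The PERK branch reaches 8 and 9 of 13 genes lower, and the other lists lie nearer to the bar for all 13076 genes.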

How the data were processed

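RNA from 27 libraries was analysed. Per the labels and the study's methods, total RNA was prepared with random-primed TruSeq libraries, sequenced as paired ends, aligned to hg19 with STAR and counted over RefSeq genes with Rsubread. The labels call the deposited values FPKM. In each library, however, 100% of them were whole multiples of 1 step that did not depend on gene length, so the values deposited by the authors were read as CPM, and dividing by the step gave back the reads. The deposited CPM sum to 40.3% to 45.6% of the total they are scaled to, and what makes up the rest is not given in the sources used here. Intervals and tests cover these libraries only.

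Values were analysed as log2(CPM + 0.1) with limma 3.58.1 in R 4.3.3, with a variance trend. Genes with at least 1 CPM in at least 3 libraries fitted were tested (13076 over all lines, 11235 in Karpas422, 11205 in OCI-Ly1, 11862 in HBL1 and 12607 in the controls), with Benjamini-Hochberg adjustment over all of them. A fold understates the change of genes near the pseudocount. edgeR 4.0.16 on the recovered reads was an alternative, beside pseudocounts of 1 and 0.01, no filter, median-ratio and quantile scaling, a replicate block, no variance trend, the 18 libraries compared, and leaving out each library or line. The models were tested on simulated data. Exon overlap and mRNA lengths come from GRCh37 annotation. The protein stretches that had been planned are not used here.

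Genes whose values are given by library are those called with either shRNA over the lines, with XBP1, ERN1, ATF6, ATF6B and HSPA5. Within a line they are at most 5 called with both shRNAs, for F tests the 5 smallest adjusted p, and for other lists the 3 largest mean changes. The genes and lists were chosen with earlier results of these data known. EDEM2, EDEM3, SYVN1, SDF2L1 and genes named to complete a group were chosen after their values were seen. Replicate numbers were checked by the correlation of deviations from group means. All 9 same-numbered pairs of OCI-Ly1 (0.11 to 0.56) and of HBL1 (0.22 to 0.50) were over 0.1, so the numbers were taken to pair the samples there, and in Karpas422 8 of 9 were (0.014 to 0.49). The own number correlated highest for 6 of 9 libraries in Karpas422, 7 of 9 in OCI-Ly1 and 6 of 9 in HBL1, so HBL1 and Karpas422 were alike by that measure. The reported fits do not use the pairing in any line, and it enters only as the replicate block among the alternatives. The labels do not say what the numbers mark.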

Additional observations from a re-analysis of the deposited data

Results flagged for a closer look

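The response to the SIRT3 shRNAs differed between the lines for 13 of 34 genes by the F test on the interaction terms in limma (adjusted p under 0.05), against 41.8% of all genes tested. The adjusted p were 0.0012 for SYVN1, 0.0021 for ATF6, 0.0023 for SEL1L, 0.0025 for XBP1, 0.0029 for OS9, 0.0037 for DERL3, 0.0038 for DNAJC3, 0.0043 for ERN1, 0.0090 for ATF6B, 0.025 for HERPUD1, 0.040 for MANF, 0.043 for EDEM3 and 0.044 for DERL2. XBP1 was at -1.63 and -2.08 (log2 scale, shSIRT3-1 and shSIRT3-2) in Karpas422, -0.65 and -0.83 in HBL1 and -0.21 and -0.10 in OCI-Ly1. SEL1L was at -0.93 and -0.49 in Karpas422, -1.74 and -1.34 in HBL1 and -0.34 and -0.28 in OCI-Ly1. HERPUD1 was at -1.0 and -1.40 in Karpas422, -0.32 and 0.20 in HBL1 and -0.16 and -0.64 in OCI-Ly1. DERL3, most of whose exons overlap SMARCB1, was at 1.31 with shSIRT3-1 in HBL1 and at -0.29 and -1.09 in Karpas422 and OCI-Ly1. Without OCI-Ly1 shCTRL replicate 2, 20 genes were called, a count with no share of all genes beside it.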

How the results depend on the processing

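Counts of called genes mostly stayed within 1.5 times of the reported ones. Those that moved further were the difference between the shRNAs, 0 genes without HBL1 (4 reported), OCI-Ly1 with shSIRT3-1, 2 genes with median-ratio scaling, with a replicate block and with edgeR (1 reported), OCI-Ly1 with shSIRT3-2, 2 with the block (1 reported), and the interaction, 20 with the block (13 reported). With the block, OCI-Ly1 also had 1 gene called with both shRNAs (0 reported), DERL3, and in Karpas422, where the numbers were not taken to pair the samples, DNAJB9 with shSIRT3-1 was gained. The block moved no other count of the set by over 1.5 times, and over the 3 lines it changed no call. Leaving out 1 library gave 6 to 7 genes for shSIRT3-1 over the lines, 8 to 10 for shSIRT3-2 and 2 to 4 between the shRNAs, the lowest without HBL1 shSIRT3-2 replicate 3. By line it gave 7 to 10 and 8 to 10 in Karpas422, 0 to 9 and 0 to 4 in OCI-Ly1, 5 to 8 and 12 to 16 in HBL1, 9 to 20 for the interaction and 22 to 28 for the controls. Shares of all genes are given for the reported fits only, so counts from the alternatives have no background.

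Scaling shifted the split of calls. With shSIRT3-2 over the lines it was 7 lower and 2 higher as deposited and 6 and 3 with median-ratio or quantile scaling. With shSIRT3-1 in Karpas422 it went from 6 and 3 to 5 and 4 with median-ratio scaling and edgeR. In HBL1 with shSIRT3-1 it went from 4 and 2 to 3 and 3 with edgeR, and with shSIRT3-2 from 8 and 7 to 7 and 9 with median-ratio scaling. In HBL1 with shSIRT3-1 the median of all genes was -0.11 as deposited and 0.04 with quantile scaling, so values there are relative to that shift. CRELD2 with shSIRT3-1, at 0.00, changed sign, to -0.0209 without Karpas422 and from -0.0708 to 0.051 without 1 library. XBP1 with shSIRT3-1 in HBL1 was not called with quantile scaling (-0.56) or edgeR (-0.55). The cause was not tested.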
